A study of Mus musculus with 4 samples.

Results

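The transcripts described here are 10 non-coding RNAs of mouse CD4+ T cells: the nuclear RNAs Malat1 and Neat1 and the 8 small nucleolar RNA (snoRNA) host transcripts Gas5, Snhg1, Snhg3, Snhg5, Snhg6, Snhg8, Snhg12 and Snhg15. They were chosen by name among the 34745 genes of the deposited table. Of the 10, 9 stood there under these symbols, and Snhg15 was found by its identifier ENSMUSG00000085156 under the older symbol Gm11974. The RNA came from the spleens of wild type C57BL/6 mice, as CD4+ T cells in 4 libraries, with 1 library per group. The naive library held CD4+ T cells selected from the spleen without culture, and the Th0 library held such cells after 3 days with αCD3/CD28. Cells kept for 3 days under Th17 or Treg differentiation conditions made up the Th17 and Treg libraries. The labels give neither the cytokines of those conditions nor the age, sex and number of the mice behind a library.

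Malat1 is an abundant RNA of nuclear speckles, the bodies that store splicing factors. Neat1 is the RNA around which paraspeckles, another kind of nuclear body, are built. A snoRNA host is transcribed as an ordinary spliced gene whose introns hold snoRNAs. The introns yield snoRNAs that guide chemical modification or processing of ribosomal RNA, whereas the spliced host RNA is exported and, for hosts such as Gas5 that start with a run of pyrimidines, is turned over when it is translated. T cell activation is known to raise ribosome production, and Gas5 takes its name (growth arrest specific) from its build-up in cells that stop growing.

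What sets Malat1 and Neat1 apart from ordinary genes is the end of the RNA, so those ends are printed first, from the GENCODE vM21 transcripts of GRCm38. Both lie on the minus strand of chromosome 19, Malat1 at chr19:5795690-5802672 and Neat1 at chr19:5824708-5845478. Capitals mark the longest letters that the last 400 bases of both RNAs share, and the longest that they share within 60 bases before and 150 bases after these. The first and middle stretches hold U-rich runs, written here with T, and the last is A-rich. Such U-rich and A-rich runs are known to pair in a triple helix that protects these RNA ends. The Malat1 sequence is chr19:5795982-5796075 and ends 292 bases before the annotated end of the gene. The Neat1 sequence is chr19:5824708-5824807 and ends at the annotated end. The third line is Gm27702, a 56-base small RNA at chr19:5824652-5824707 that begins right after the last base of Neat1.
Malat1: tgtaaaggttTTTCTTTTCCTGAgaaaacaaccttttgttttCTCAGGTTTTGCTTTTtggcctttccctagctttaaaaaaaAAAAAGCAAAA
Neat1: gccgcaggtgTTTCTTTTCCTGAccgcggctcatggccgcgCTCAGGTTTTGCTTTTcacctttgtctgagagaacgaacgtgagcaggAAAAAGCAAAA
Gm27702: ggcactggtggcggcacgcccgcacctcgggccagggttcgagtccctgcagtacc
The middle stretch, CTCAGGTTTTGCTTTT, was found on the transcribed strand of 2 of 141767 annotated transcripts, which were those of Malat1 and Neat1. The last stretch, AAAAAGCAAAA, was found in 0.436% of all transcripts.

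The hosts are shown by snoRNAs that lie within their annotated bodies, also from GENCODE vM21 on GRCm38. Snhg6 (minus strand, chr1:9941959-9944118) holds 1, Snord87 at chr1:9942463-9942549. Gas5 (plus strand, chr1:161034422-161038539) holds 9 loci, of which Snord47 is at chr1:161038082-161038158. Snhg5 (minus strand, chr9:88521050-88522929) holds 2, Snord50a at chr9:88521529-88521600 and Snord50b at chr9:88521797-88521868. Snhg8 (minus strand, chr3:123507552-123508404) holds Snora24 at chr3:123507937-123508066, and Snhg15 (minus strand, chr11:6525591-6528760) holds Snora9 at chr11:6528033-6528165. Capitals mark TGATGA and CTGA, the letters of the C and D boxes, in the box C/D snoRNAs, and the ACA that lies 3 bases from the end of a box H/ACA snoRNA.
Snord87: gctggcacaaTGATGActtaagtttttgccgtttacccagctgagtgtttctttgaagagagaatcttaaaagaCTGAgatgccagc
Snord47: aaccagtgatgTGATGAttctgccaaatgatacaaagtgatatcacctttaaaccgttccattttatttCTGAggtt
Snord50a: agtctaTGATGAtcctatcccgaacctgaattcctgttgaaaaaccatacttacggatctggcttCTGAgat
Snord50b: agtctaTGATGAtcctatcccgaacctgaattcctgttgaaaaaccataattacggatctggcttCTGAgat
Snora24: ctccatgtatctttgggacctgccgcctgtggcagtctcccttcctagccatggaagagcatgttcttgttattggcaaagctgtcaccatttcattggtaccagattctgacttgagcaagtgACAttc
Snora9: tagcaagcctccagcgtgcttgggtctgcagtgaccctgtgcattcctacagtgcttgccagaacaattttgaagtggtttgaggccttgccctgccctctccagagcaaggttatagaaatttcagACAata
Snord50a and Snord50b have the same length and differ by C50A, counted from 1 at the 5′ end. The pair of TGATGA and CTGA, each within 20 bases of its end, was found in 60% of the 30 snoRNA transcripts inside the hosts and in 20.5% of all 1507 annotated snoRNA transcripts. ACA at 3 bases from the end was found in 26.7% and 18.3%. Snhg1 (plus strand, chr19:8723475-8726443) holds 8 snoRNA loci, Snhg12 (plus strand, chr4:132308623-132311024) holds 4 and Snhg3 (minus strand, chr4:132348014-132353686) holds 2. The table has 0 rows for snoRNA genes, so every value below is of the host row, and the levels of the snoRNAs were not analysed here. In GENCODE vM21 the exons of all transcripts, merged, cover the whole gene in Snhg1 (2969 bases), Snhg8 (853) and Snhg12 (2402). In Gas5 they cover 3760 of 4118 bases. Whether reads of snoRNAs or of unspliced RNA were counted in the host rows was not tested.

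Many hosts are known to begin with a pyrimidine tract at the cap, like the messenger RNAs of ribosomal proteins. RefSeq start windows (GRCm38.p6) were found for 8 of the 10 members, with none for Neat1 and Snhg6. The longest run of C or T within 10 bases of the start was 9 in Snhg12 and Snhg1, a length reached by 9.55% of all windows, and 7 in Snhg8 and Snhg5. Relative to the start, these runs began at -3 in Snhg12, -1 in Snhg8, 4 in Snhg1 and 7 in Snhg5. Those of Snhg1 and Snhg5 thus lay downstream of the start and did not span it. A run of at least 7 was present in 4 of the 7 hosts with a window and in 22.5% of all genes, each gene taken at its longest run. It was present in 40.7% of 91 windows whose gene symbols start with Rpl or Rps and a digit. That share is per window, and such symbols can also cover the Rps6k kinases, which are not ribosomal proteins. The 30 bases around the start are shown for the longest and for contrasting cases, with the run in capitals, as Snhg12 (plus strand, chr4:132308663-132308692), Snhg1 (plus strand, chr19:8723472-8723501), the second RefSeq start of Gas5 (plus strand, chr1:161035151-161035180), Snhg15 (minus strand, chr11:6528746-6528775) and Malat1 (minus strand, chr19:5802658-5802687).
Snhg12: ggccgttctcagTCCTTTCTCgcttcatcc
Snhg1: gttgttcttgtcggcctcaTTTTTCCTTgt
Gas5: agccgccatctcagCCTTTCggagctgtgc
Snhg15: cgctgctgtgaccgtaaCTTTaagcacacg
Malat1: ctccgggCTCTgcgtcaggcattcaggcag
The runs were 6 bases in the second start of Gas5, 3 in its first, 5 in Snhg3, and 4 in Snhg15 and Malat1. All 8 hosts were called higher in Th0 than in naive cells (values below), and whether the run length goes with that ratio was not tested.

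Total counts were 10256627 to 12414372 per library. Levels are CPM (counts scaled to a common library size with TMM factors), and each level or ratio carries a 95% counting interval only, because no group had a second library and the spread between samples is unknown. The call used below needed a 2-fold difference in CPM + 1 (log2 of at least 1 in size) and an exact interval of the count ratio that excluded 1. Folds are ratios of CPM without the added 1. All 9 markers of CD4+ T cells had counts in every library (summed level 3039 to 3760 CPM). Foxp3, the regulatory T cell factor, was highest in the naive library (129 CPM), ahead of Treg (51.5), Th17 (11.3) and Th0 (1.37), so the library labelled Treg did not hold the most of it. Il17a, the Th17 cytokine, was at 90.9 CPM in Th17 and 14.7 in Treg, with 3 counts in naive and 0 in Th0. The naive library also held markers of other cells: 10 of 10 B cell genes at 3833 CPM summed (105 to 449 in culture), 9 of 9 macrophage genes at 4515 (31.9 to 49.4), 7 of 7 neutrophil genes at 1451 (1.60 to 10.3) and 7 of 7 dendritic cell genes at 340 (9.02 to 27.9). For 7 erythroid and platelet genes the sum was 166 CPM in naive (0.721 to 3.20 in culture). These sums move with every comparison against naive cells, and the B cell sum also differed among the cultures (449 in Th0, 219 in Th17 and 105 in Treg). Their part in the ratios below was not tested. In such bulk RNA, fewer cells of a type and less RNA per cell cannot be told apart.

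**Figure D1:**
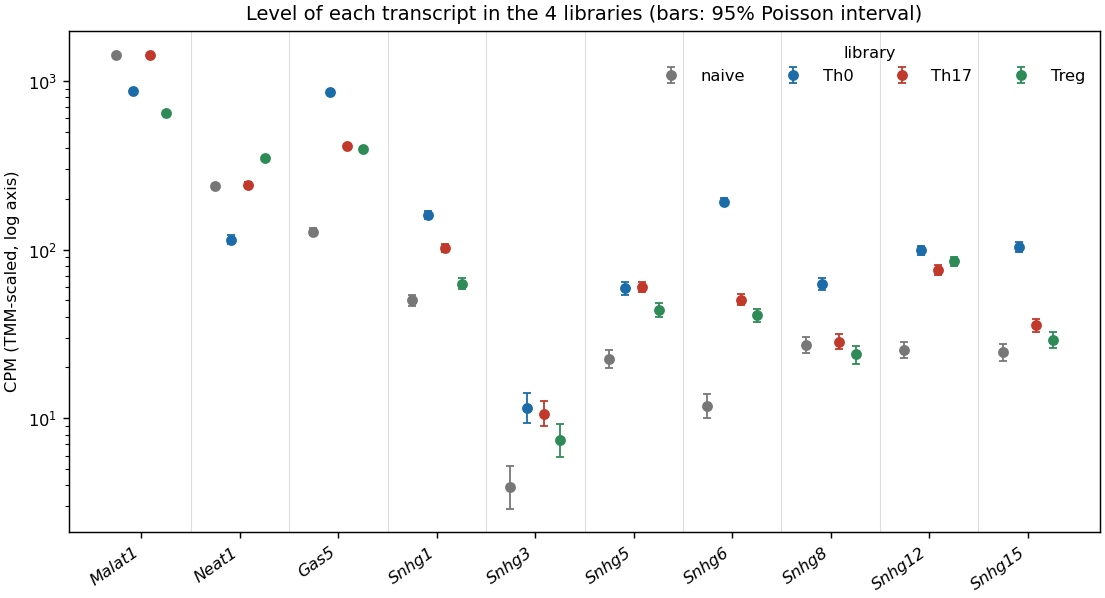
Level of each of the 10 transcripts in the 4 libraries, as TMM-scaled CPM on a log axis, with 1 point per library and bars for the 95% Poisson interval of the count. Th0 (blue) is the highest point for 7 of the 8 hosts and the lowest for Neat1, and naive (grey) is the lowest for 7 of the 8 hosts.

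Malat1 was high in naive and Th17 cells and low in Th0 and Treg cells. Its level was 1425 CPM in naive (17513 counts), 870.04 in Th0 (7617 counts), 1422 in Th17 (18566 counts) and 648 in Treg (7190 counts). The naive and Th17 intervals, 1404 to 1447 and 1402 to 1443 CPM, overlapped, and no other neighbours in this order did. Malat1 took 0.147% of all counts in naive cells and 0.0701% in Treg cells. Among 8974 rows that GENCODE types as non-coding, a class that includes a few processed transcripts of coding genes, it had the most counts in naive, Th17 and Treg and the second most in Th0. It was 2.20-fold lower in Treg than in naive cells (2.14 to 2.26) and 2.19-fold higher in Th17 than in Treg cells (2.13 to 2.25). Both calls held under all 4 scalings tried. Against Th0 it missed the 2-fold threshold, with log2 ratios of 0.71 in Th17 and -0.42 in Treg, and the Th17 ratio passed it when library totals were used (1.01).

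Neat1 took a different course. It was at 238 CPM in naive (2923 counts), 115 in Th0 (1003 counts), 242 in Th17 (3160 counts) and 349 in Treg (3872 counts). GENCODE vM21 gives Neat1 4 transcripts of 711 to 20771 bases, and these counts do not tell the longest from the others. The order was Treg, Th17, naive, Th0, and the intervals of Th17 and naive overlapped. Neat1 was 2.08-fold lower in Th0 than in naive cells (1.93 to 2.23). It was 2.11-fold higher in Th17 (1.97 to 2.27) and 3.05-fold higher in Treg (2.84 to 3.27) than in Th0, and these ratios share the Th0 library. All of these calls held under the 4 scalings. The ratio of both RNAs within a library needs no scaling between libraries: 5.99 Malat1 counts fell on each Neat1 count in naive cells (5.76 to 6.23), 7.59 in Th0 (7.11 to 8.12), 5.88 in Th17 (5.66 to 6.10) and 1.86 in Treg (1.79 to 1.93). The Treg library thus stood apart from the other 3 in this ratio, with Malat1 at its lowest and Neat1 at its highest.

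Gas5 was the most counted host in every library. It was at 128 CPM in naive (1568 counts), 860.1 in Th0 (7530 counts), 409.97 in Th17 (5351 counts) and 396 in Treg (4389 counts). The intervals of Th17 and Treg overlapped, and the other libraries were apart. Gas5 was 6.74-fold higher in Th0 than in naive cells (6.38 to 7.12), 3.21-fold higher in Th17 (3.04 to 3.40) and 3.10-fold higher in Treg (2.93 to 3.29), all against the same naive library. In Th0 cells its counts nearly matched those of Malat1, at 0.989 Gas5 counts per Malat1 count (0.957 to 1.02), where naive cells had 0.0895 (0.0850 to 0.0943).

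Snhg6, the host of Snord87, differed more between libraries than any other of the 10. Its level was 11.9 CPM in naive (146 counts), 193 in Th0 (1688 counts), 50.4 in Th17 (658 counts) and 40.7 in Treg (451 counts). In the order Th0, Th17, Treg, naive, no interval overlapped that of its neighbour. The Th0 level was 16.2-fold above naive (13.7 to 19.3), and 63 of 13995 tested genes had a log2 ratio at or above its 3.91. Snhg6 was then 3.82-fold lower in Th17 (3.49 to 4.19) and 4.74-fold lower in Treg (4.27 to 5.27) than in Th0. For each Gas5 count there were 0.224 Snhg6 counts in Th0 (0.213 to 0.236) and 0.0931 in naive (0.0780 to 0.110), so Snhg6 differed by more than Gas5.

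Snhg12, which carries 3 box H/ACA snoRNAs and Snord99, stayed close to its Th0 level in the other cultures. It was at 25.5 CPM in naive (313 counts), 98.9 in Th0 (866 counts), 75.8 in Th17 (989 counts) and 85.2 in Treg (945 counts). The intervals of Treg and Th17 overlapped, though the interval of their ratio (1.03 to 1.23) excluded 1. Its fold over naive was 3.88 in Th0 (3.41 to 4.43), 2.97 in Th17 (2.62 to 3.39) and 3.35 in Treg (2.94 to 3.81). Against Th0 it passed no call, with log2 ratios of -0.38 in Th17 and -0.21 in Treg, and the Treg value changed sign with library totals (0.13). In counts, not corrected for length, Snhg12 and Snhg6 changed places. Snhg12 had 2.14 counts for each Snhg6 count in naive cells (1.76 to 2.63), 0.513 in Th0 (0.472 to 0.557), 1.50 in Th17 (1.36 to 1.66) and 2.10 in Treg (1.87 to 2.35). Per kilobase of merged exons, Snhg12 and Snhg6 lay close in naive (10.6 and 10.4 CPM) and Treg (35.48 and 35.49 CPM). On that scale Snhg12 was lower in Th0 (41.2 and 168 CPM) and Th17 (31.5 and 43.99 CPM). By the deposited FPKM, Snhg12 was higher in naive (7.996 and 5.62) and Treg (28.01 and 20.15). By FPKM it was lower in Th0 (25.6 and 75.3) and close to Snhg6 in Th17 (24.22 and 24.29).

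Snhg15 and Snhg8, each with 1 box H/ACA snoRNA, were highest in Th0 and called higher than naive there alone. Snhg15 was at 24.6 CPM in naive (302 counts), 104 in Th0 (910 counts), 35.5 in Th17 (464 counts) and 29.2 in Treg (324 counts). It was 4.23-fold higher in Th0 than in naive cells (3.71 to 4.83), and 2.92-fold (2.61 to 3.28) and 3.56-fold (3.13 to 4.05) lower than Th0 in Th17 and Treg. Without a call, Snhg15 was above naive by 1.45-fold in Th17 (1.25 to 1.68) and 1.19-fold in Treg (1.01 to 1.40). Snhg8 was at 27.2 CPM in naive (334 counts), 62.8 in Th0 (550 counts), 28.5 in Th17 (372 counts) and 23.9 in Treg (265 counts). Outside Th0 its neighbouring intervals overlapped, and only the ratio of Th17 to Treg, at 1.19-fold (1.02 to 1.40), had an interval that excluded 1 among naive, Th17 and Treg. Snhg8 was 2.31-fold higher in Th0 than in naive cells (2.01 to 2.66), a call that library totals ended (log2 0.91).

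Snhg1, the host with 8 snoRNA loci, was graded. It was at 49.98 CPM in naive (614 counts), 161 in Th0 (1411 counts), 102 in Th17 (1329 counts) and 62.6 in Treg (694 counts), and all neighbouring intervals were apart. Its level exceeded naive by 3.22-fold in Th0 (2.93 to 3.55), and Treg lay 2.58-fold below Th0 (2.35 to 2.82). The Th17 level was 2.04-fold above naive (1.85 to 2.25), a call made under 2 of the 4 scalings. Slc3a2, the heavy chain of amino acid transporters, starts 106 bases away on the opposite strand. It stood in the same order of libraries, at 136 (naive), 323 (Th0), 226 (Th17) and 149 CPM (Treg), and was called higher in Th0 than in naive and lower in Treg than in Th0.

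Snhg5, with the Snord50 pair, and Snhg3, with Snora73a and Snora73b, resembled each other most among the 10 (distance 0.147 between their log2 levels, each centred on its mean over the 4 libraries). Snhg5 was at 22.5 CPM in naive (276 counts), 59.1 in Th0 (517 counts), 59.99 in Th17 (783 counts) and 43.9 in Treg (487 counts). Snhg3 was the least counted member, at 3.91 CPM in naive (48 counts), 11.5 in Th0 (101 counts), 10.6 in Th17 (139 counts) and 7.39 in Treg (82 counts). For both, the Th0 and Th17 intervals overlapped, and the sign of their Th17 over Th0 ratio changed with the scaling. Snhg5 was higher than naive by 2.63-fold in Th0 (2.27 to 3.05) and 2.67-fold in Th17 (2.33 to 3.07), and Snhg3 by 2.95-fold (2.07 to 4.26) and 2.73-fold (1.95 to 3.87). Neat1 and Snhg6 were the least alike pair (distance 3.67).

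**Figure D2:**
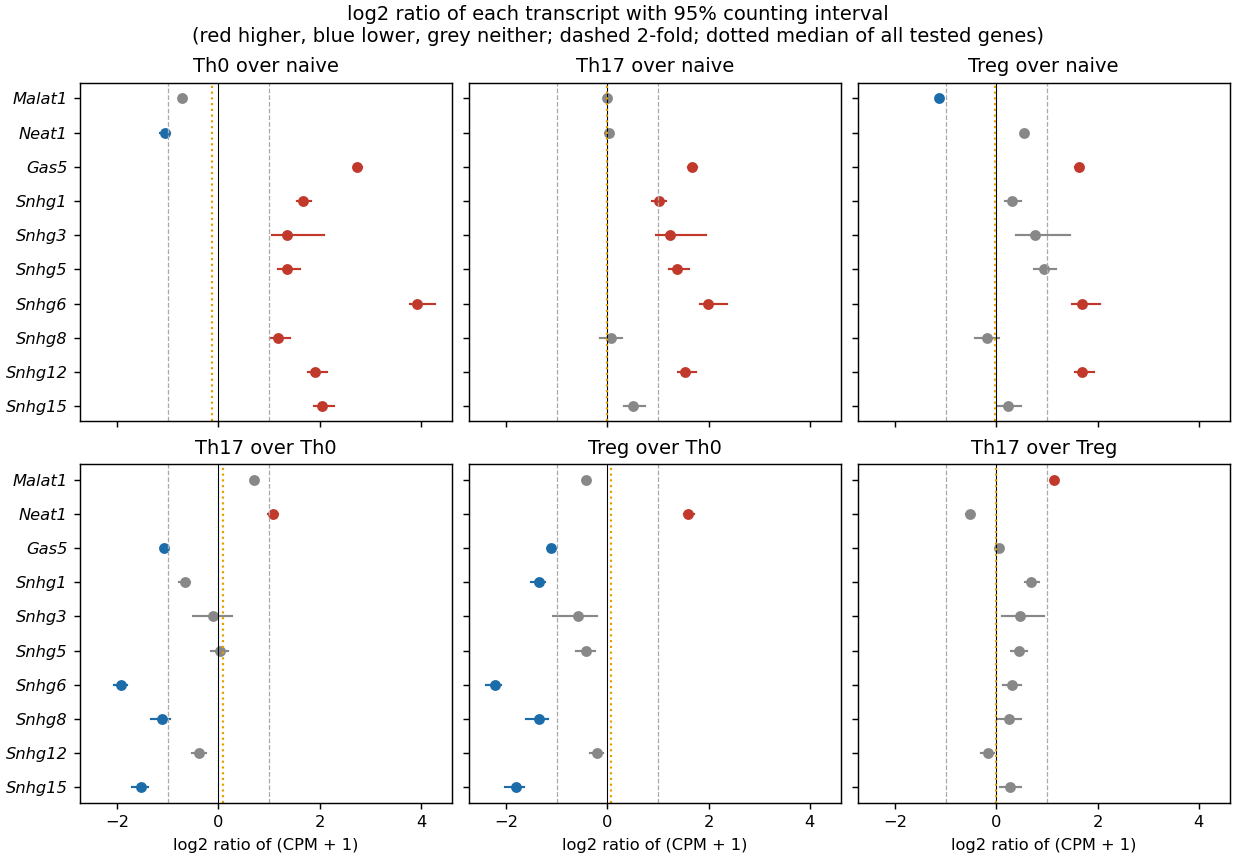
log2 ratio of CPM + 1 for each transcript in the 6 comparisons, with lines for the 95% interval of the count ratio, which is taken without the added 1 and so lies off centre for low transcripts such as Snhg3. All 8 hosts lie right of the 2-fold line in Th0 over naive, and Malat1 alone does so in Th17 over Treg.

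The 3 comparisons with the naive library share it, and hosts were called higher in each: 8 of 8 in Th0, 6 in Th17 and 3 in Treg. By TMM-scaled level 7 of 8 were highest in Th0, and with library totals 5 were, because Snhg3 was then higher in Th17 than in Th0 (log2 0.17) and Snhg12 higher in Treg than in Th0 (log2 0.13). In Th0 over naive, where 45.7% of 13995 tested genes were called, 8 of 8 hosts were called higher, as were 18.5% of tested genes, and the median log2 ratio was 1.79 over the hosts and -0.13 over all tested genes. Of the other 2 members, Neat1 was called lower, as were 27.2% of tested genes, and Malat1 neither (log2 -0.71). In Th17 over naive, where 33.1% of 14523 genes were called, 6 of 8 hosts were called higher, against 15.6% of genes, and 0 members lower, against 17.4%. The host median was 1.31. Malat1 and Neat1 stood at 0.998 and 1.02 times their naive level. In Treg over naive, where 31.7% of 14350 genes were called, 3 hosts (Gas5, Snhg6 and Snhg12) were called higher, against 14.9%, and Malat1 was called lower, against 16.8%. The host median was 0.86, with -0.02 over all tested genes. The summed host level was 293 (naive), 1550.35 (Th0), 773 (Th17) and 689 CPM (Treg).

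The Th0 library also stood apart in other RNAs. Of 13 mitochondrial messenger RNAs, 9 were called lower and 1 higher in Th0 over naive (median -1.92), against 27.2% and 18.5% of all tested genes. In Th17 over Th0, 8 were called higher and 1 lower (median 1.29), against 20.4% and 12.2%. These messenger RNAs moved unequally: mt-Nd4l, a subunit of respiratory complex I, was at 765 (naive), 32.2 (Th0), 339 (Th17) and 327 CPM (Treg), whereas mt-Co1, a subunit of cytochrome oxidase, was at 16461, 34588, 16905 and 17615. The non-coding row Gm26917, chosen after its values were seen, was at 59.7, 1655, 61.8 and 58.3 CPM in the same order, and its 14492 counts in Th0 exceeded the 7617 of Malat1. TMM factors computed without Malat1 and the mitochondrial genes moved no member ratio beyond its counting interval, and the part of these differences in the host ratios was otherwise not tested.

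Against Th0 the direction of the hosts turned. In Th17 over Th0, where 32.6% of 13324 genes were called, 4 of 8 hosts (Gas5, Snhg6, Snhg8 and Snhg15) were called lower, against 12.2%, and Neat1 was called higher, against 20.4%. The host median was -0.86, with 0.10 over all tested genes. In Treg over Th0, where 32.1% of 13138 genes were called, 5 hosts (these 4 and Snhg1) were called lower, against 11.9%, and Neat1 higher, against 20.2%. The medians were -1.23 over hosts and 0.08 over all tested genes. Of the B cell markers, 4 of 10 were called lower and 1 higher in Th17 over Th0, and 8 of 9 tested lower in Treg over Th0. With library totals the lower hosts came to 2 in Th17 over Th0 (Snhg6 and Snhg15) and 4 in Treg over Th0. The median over all genes (log2) shifted by 0.27 and 0.31 with that scaling. It also moved the share of all calls that were higher from 62.6% to 79.3% in Th17 over Th0, from 62.9% to 81.8% in Treg over Th0 and from 40.5% to 29.6% in Th0 over naive, where the median moved by -0.25.

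Th17 and Treg cells differed little from each other: 3.15% of 13346 tested genes were called, 1.94% of the tested genes as higher and 1.21% as lower. Malat1 was the only member called (higher, log2 1.13), and 188 tested genes had a ratio at or above its own. In the same comparison 7 of 10 B cell markers were called higher (median 1.27), with sums of 219 CPM in Th17 and 105 in Treg, and their part in the Malat1 ratio was not tested. Neat1 lay on the other side (log2 -0.53), with 242 CPM in Th17 and 349 in Treg. The hosts ranged from -0.17 (Snhg12) to 0.69 (Snhg1), with a median of 0.29 against 0.01 over all tested genes, and 7 of 8 were above 0.

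**Figure D3:**
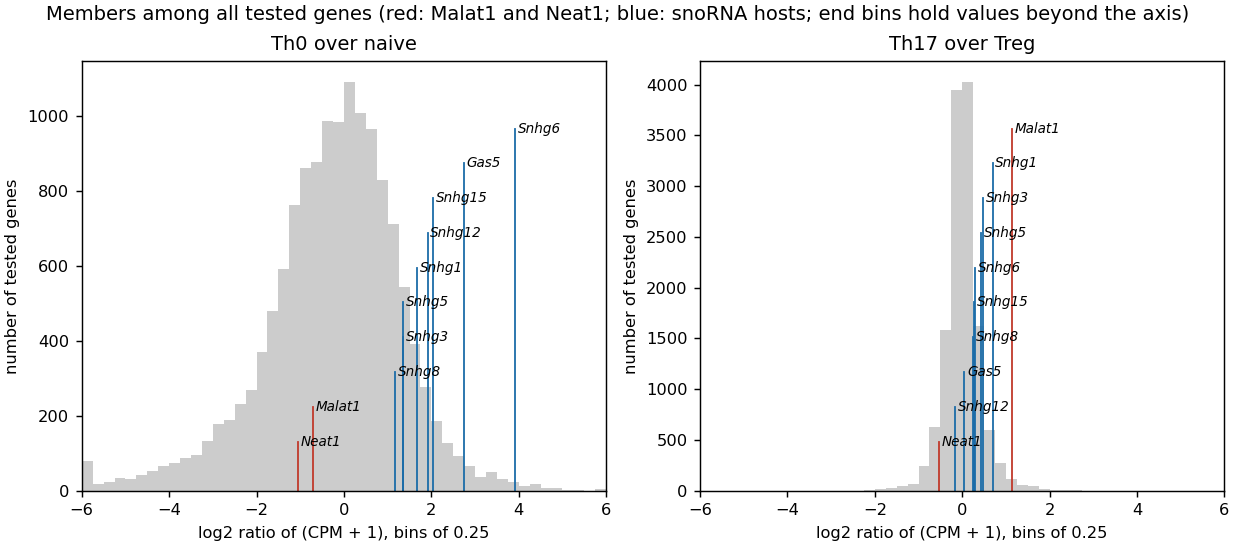
Number of tested genes by log2 ratio of CPM + 1 in bins of 0.25 (grey bars) with the members marked as lines, Malat1 and Neat1 in red and hosts in blue; line heights only separate the names. In Th0 over naive the hosts lie from 1.18 to 3.91 on the right side of the distribution, and in Th17 over Treg Malat1 lies at 1.13 beyond most genes.

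Levels of different genes were compared per length, and 2 lengths were available. The deposited FPKM implied a length for each gene, a whole number of bases (within 0.01) in 96.0% of the 8969 genes counted 50 times or more per library. In 72.4% of them it exceeded the merged exon length of GENCODE vM21 by more than 1% (median ratio 1.27). For the members the implied length was 1.19 times (Neat1) to 3.75 times (Snhg1) the merged exons, and for Gas5 it was 11685 against 3760 bases. Per the deposited FPKM, Th0 cells held Malat1 at 79.4, Snhg6 at 75.3 and Gas5 at 62.7, in that order. Per kilobase of merged exons the order was Gas5 at 229, Snhg6 at 168 and Malat1 at 125 CPM. In naive cells Malat1 led on both scales, at 158 FPKM and 204 CPM per kilobase, with Snhg8 next in FPKM (16.02) and Gas5 next per kilobase (33.9). Neat1, the longest at 20771 bases of merged exons, was lowest of the 10 in Th0 on both scales (3.94 FPKM, 5.52 CPM per kilobase). The ratio of 1 gene between libraries does not depend on this length.

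**Figure D4:**
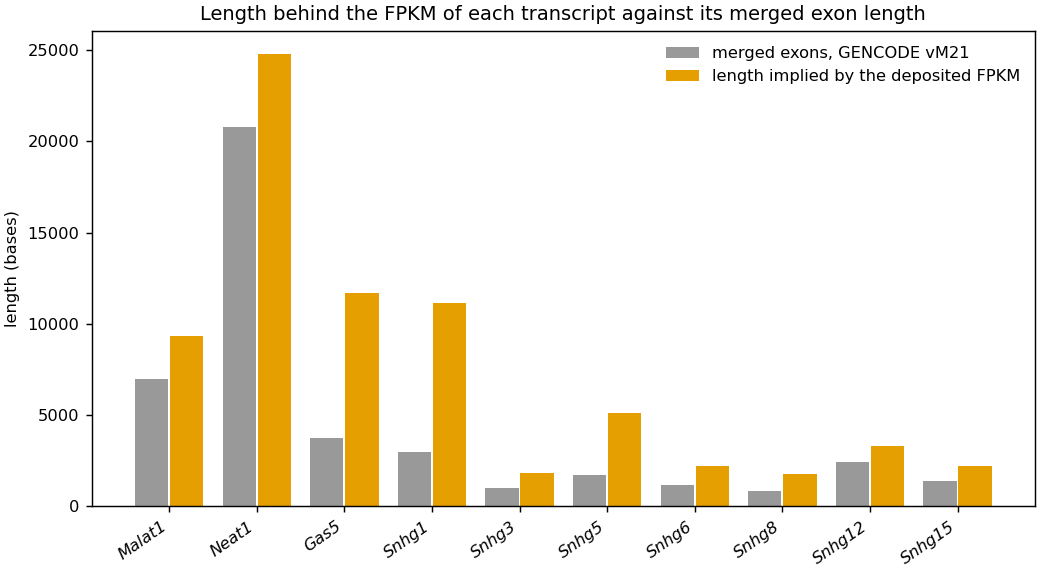
Length in bases of the merged exons of each transcript (grey bars) and the length implied by its deposited FPKM (orange bars). The orange bar is the taller one for all 10, most so for Snhg1 (3.75 times) and Gas5 (3.11 times).

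Some members share sequence with neighbours, and strand was not stated, so reads of overlapping genes could not be told apart. Zbtb37, a zinc finger gene, overlaps Gas5 on the opposite strand and was at 94.9 CPM in both naive and Th0, with 63.2 in Th17 and 74.3 in Treg and no call. Rcc1, the exchange factor of the Ran GTPase, overlaps Snhg3 on the same strand and was at 32.7 (naive), 31.2 (Th0), 50.4 (Th17) and 47.6 CPM (Treg). Its level exceeded that of Snhg3 in every library, and how the counting split reads between them is not stated. Mcmdc2 overlaps Snhg6 on the opposite strand and had 11, 2, 0 and 1 counts. The antisense rows Gm37376 (Malat1) and Gm17300 (Snhg3) had at most 6 counts, and they were the only other genes whose transcripts aligned to a member over at least 300 bases at 95% identity.

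Against naive cells, the other non-coding hosts on the list went mostly the same way as the member hosts. The table had 11, and 7 of them could be tested. Of these, 5 were called higher and 1 lower in Th0 over naive (median 1.46), against 18.5% and 27.2% of all tested genes. GENCODE vM21 places 0 snoRNAs in 2 of the 7, Snhg20 (called higher) and 1810026B05Rik (called neither), and the identifier of Snhg4 (called higher) was not matched there. 2410006H16Rik, with 3 snoRNA entries inside it, was at 54.2 (naive), 587 (Th0), 480 (Th17) and 486 CPM (Treg), the pattern of a host that stays high in all cultures. Zfas1, listed as 1500012F01Rik, was at 19.5, 141, 83.0 and 73.1 CPM in the same order. Snhg17 did the opposite: it was at 37.2 (naive), 17.5 (Th0), 67.7 (Th17) and 47.3 CPM (Treg), 2.13-fold lower in Th0 than in naive and 3.87-fold higher in Th17 than in Th0. 1810026B05Rik was 3.87-fold lower in Th17 than in Th0. In Th17 over Th0, 1 of 7 was called higher and 1 lower (median -0.29), against 20.4% and 12.2% of all tested genes. There, 4 of the 8 member hosts were called lower (median -0.86).

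Protein-coding hosts carry snoRNAs in the introns of genes for translation and nucleolar proteins. Of 43 tested, 24 were called higher and 2 lower in Th0 over naive (median 1.19), against 18.5% and 27.2% of all tested genes. In Th17 over Th0, 2 were called higher and 18 lower (median -0.84), against 20.4% and 12.2%. With library totals these counts were 20 and 4, and 4 and 9. Rps20, a ribosomal protein gene, was at 454 (naive), 2291 (Th0), 593 (Th17) and 645 CPM (Treg). Rps2 was at 491, 2201, 565 and 502. Split by gene name after the values were seen, 16 of 20 ribosomal protein hosts and 8 of the other 23 were called higher in Th0 over naive. Exceptions were Dkc1, the pseudouridine synthase of H/ACA particles, at 68.5, 21.1, 63.4 and 44.6 CPM, and Nop56, a core protein of C/D particles, at 108, 40.2, 93.9 and 81.5 CPM.

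Genes for proteins that assemble with snoRNAs were called only in the direction opposite to the hosts in these 2 comparisons, and most passed no call. Of 19 snoRNP core and assembly genes, a list that includes Dkc1 and Nop56, 0 were called higher, 8 lower and 11 neither in Th0 over naive (median -0.58), where 27.2% of tested genes were called lower. In Th17 over Th0, 9 were called higher, 0 lower and 10 neither (median 0.87), where 20.4% of tested genes were called higher. In Th0 over naive 3 of the 19 lay above 0 without a call, among them Nhp2, a core protein of H/ACA particles (log2 0.96). These comparisons share the Th0 library. Znhit6, an assembly factor of C/D particles, was at 20.7 (naive), 2.86 (Th0), 19.6 (Th17) and 17.9 CPM (Treg). Nolc1, a nucleolar chaperone of snoRNPs, was at 103, 17.7, 105 and 83.1 CPM. With library totals the counts were 0 higher and 9 lower, and 10 higher and 0 lower.

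**Figure D5:**
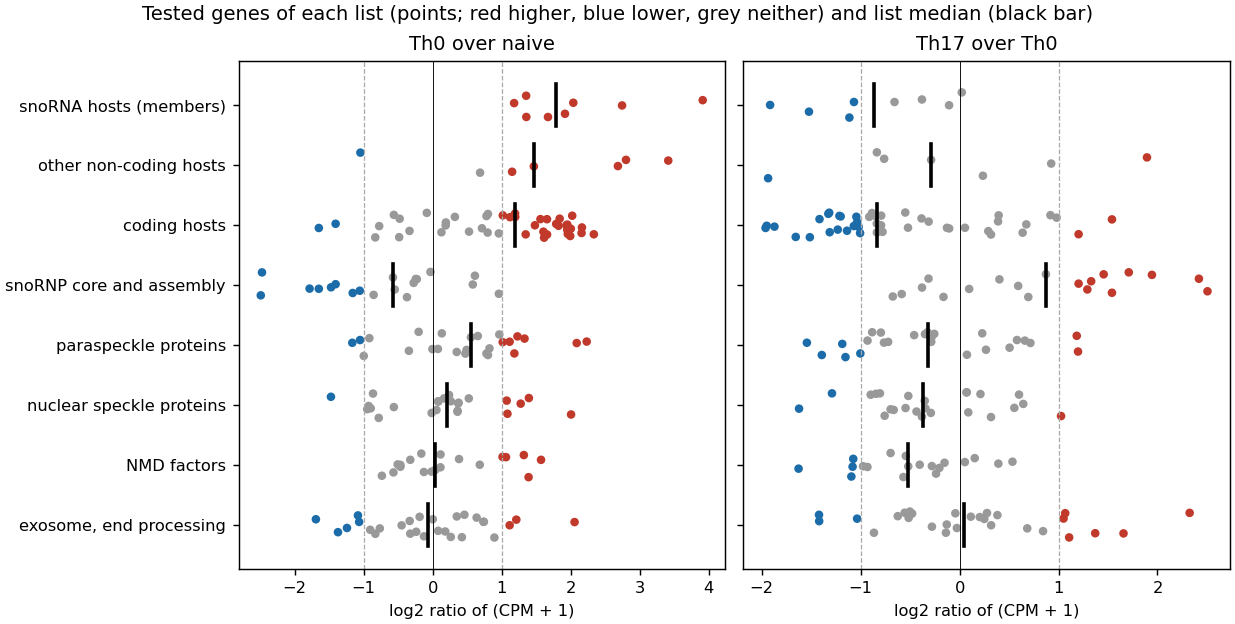
log2 ratio of CPM + 1 of the tested genes in each list (points, red called higher, blue lower, grey neither) with the list median as a black bar; vertical scatter only separates points. In Th0 over naive the host lists have medians of 1.19 to 1.79 and snoRNP genes -0.58, and in Th17 over Th0 the snoRNP median is 0.87.

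Proteins of the bodies that hold Neat1 and Malat1 showed no common direction. Among 25 paraspeckle proteins, 7 were called higher and 2 lower in Th0 over naive (median 0.55), and 2 higher and 5 lower in Th17 over Th0 (median -0.32). Hnrnph3 was at 44.1 (naive), 211 (Th0), 79.7 (Th17) and 66.6 CPM (Treg), and Matr3 at 162, 693, 237 and 210.1, both high where Neat1 was low. Among 24 nuclear speckle proteins, 5 were called higher and 1 lower in Th0 over naive (median 0.20), and 1 higher and 2 lower in Th17 over Th0 (median -0.37). The shares over all tested genes were 18.5% higher and 27.2% lower, and 20.4% higher and 12.2% lower, in the same comparisons. With library totals the balance in Th0 over naive turned, to 3 higher and 4 lower among paraspeckle proteins and 2 higher and 6 lower among speckle proteins, and that of paraspeckle proteins in Th17 over Th0 became 3 higher and 2 lower. The splicing factor Srsf1 was at 112, 454, 252 and 286 CPM in the same order, and Srsf6 at 390.3, 140, 219 and 189.

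Spliced host RNAs are known targets of nonsense-mediated decay. Of 19 factors of that pathway, 5 were called higher and 0 lower in Th0 over naive (median 0.04), and 0 higher and 4 lower in Th17 over Th0 (median -0.52). Among all tested genes, 18.5% were called higher and 27.2% lower in Th0 over naive, and 20.4% higher and 12.2% lower in Th17 over Th0. Upf3b, which links exon junctions to the decay machinery, was at 41.2 (naive), 124 (Th0), 62.7 (Th17) and 65.5 CPM (Treg), and Smg6, the endonuclease, at 86.8, 229, 108 and 97.5. Of 28 genes of the nuclear exosome and of lncRNA end processing, 3 were called higher and 5 lower in Th0 over naive (median -0.06), and 6 higher and 3 lower in Th17 over Th0 (median 0.04). With library totals, 3 decay factors were higher and 1 lower in Th0 over naive and 0 and 1 in Th17 over Th0, and the exosome list had 1 higher and 8 lower in Th0 over naive. Exosome subunits went apart, with Exosc8 at 43.0, 182, 67.3 and 68.6 CPM and Exosc2 at 18.5, 5.03, 29.2 and 13.6.

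Other long non-coding RNAs had no shared course. Of 21 on the list, 7 were called higher and 4 lower in Th0 over naive (median 0.04), against 18.5% and 27.2% of all tested genes. In Th17 over Th0, 5 of 19 were called higher and 7 lower (median 0.07), against 20.4% and 12.2%. Pvt1, beside Myc, was at 5.37 (naive), 56.7 (Th0), 18.5 (Th17) and 25.6 CPM (Treg). Mir17hg, the host of the miR-17 cluster, was at 15.2, 1.03, 27.5 and 18.4 CPM, lowest in Th0 as Neat1 was. The highest ratio of the list in Th0 over naive and the lowest in Th17 over Th0 were those of Gm26917 (log2 4.77 and -4.72; levels above). Among 955 tested rows of non-coding type other than the members, 25.9% were called higher and 25.8% lower in Th0 over naive, beside 8 and 1 of the 10 members.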

How the data were processed

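RNA-seq of 4 libraries (naive, Th0, Th17, Treg; grouped by the labels' cell type) was used as the table that the authors deposited. It holds whole-number read counts per gene, deposited without normalization, and FPKM values made by the authors, per the file headers. The submitters' processing notes name Bowtie2 and RSEM, with no version, and the builds GRCm38.p6 and mm10. Neither the roles of these tools nor the strandedness, poly(A) selection and annotation are stated. TRIzol RNA was sequenced on an Illumina HiSeq, per the labels' protocols.

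Counts were scaled with TMM (edgeR 4.0.16, R 4.3.3; factors 1.03, 0.852, 1.05 and 1.08 for naive, Th0, Th17 and Treg). In 6 comparisons, genes with at least 10 counts in 1 of the 2 libraries were tested for size: log2 ratio of CPM + 1, which understates low genes, at least 2-fold, and a 95% interval of the count ratio (exact, conditional on the pair's total, Clopper-Pearson) excluding 1. Levels have exact Poisson intervals. Reads carry no stated molecular identifiers, so intervals cover counting error only. With 1 library per group there is no p-value and no SD. Alternatives were library totals, DESeq2 1.42.0 size factors, upper quartile factors, other pseudocounts and filters, FPKM, thinning, and TMM on reduced tables. The last of these for the cultured libraries, and counts per kilobase of merged exons, were chosen after seeing the data. Sequence copies were sought with minimap2.

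The members and gene lists were chosen with earlier results of these data known. Of the other lists, the rule named up to 2 called genes highest and 2 lowest in Th0 over naive and in Th17 over Th0, leaving out predicted genes and clone names other than snoRNA hosts, and some of these are printed. It also named overlapping genes, genes starting within 1000 bases on the other strand, and the 3 genes nearest in pattern to Malat1, Neat1 and Gas5. Some genes that the rule named are left out. Foxp3 and Il17a were added as a check of the labels. The listed symbols Snhg7, Snhg10, Snhg16, Exosc6, Mtr4, Norad, Morrbid and Cytor were not matched and are not analysed here.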

Additional observations from a re-analysis of the deposited data

How the results depend on the processing

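No paired analysis was possible because each group has 1 library. For the same reason no replicate could be left out, and whether any difference exceeds the spread between mice or cultures was not tested. Of 510 recomputed member ratios, 440 stayed within their counting interval, 70 moved and 0 called ratios reversed. Library totals accounted for 29 of the moves, the authors' FPKM, which carry the same totals, for 29, DESeq2 size factors for 6 and a pseudocount of 5 CPM for 6. The other settings, including thinning to the lowest total and TMM without Malat1 and mitochondrial genes, moved none. Of 139 recomputed counts of members or hosts called and shares of genes called, 137 were within 1.5 times the reported value; the hosts called lower in Th17 over Th0 came to 2 in place of 4 under library totals and under FPKM, which lack the TMM factors. Ratios nearest the 2-fold line changed their call: Gas5 in Th17 over Th0 (log2 -1.07, with -0.76 under library totals) and in Treg over Th0 (-1.12, with -0.78), Snhg8 in Th17 over Th0 (-1.11, with -0.82), and Snhg5 in Treg over naive (0.94, called under library totals). With a pseudocount of 5 CPM, Snhg3 lost its call in Th0 over naive (1.35, with 0.89) and in Th17 over naive (1.25, with 0.81), where Snhg1 also lost its call and the hosts called higher came to 4 in place of 6. Depth limits Snhg3 most, at 48 to 139 counts.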

Other observations

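The genes most like a member over the 4 libraries were sought among 5161 genes with at least 10 CPM in a library and a standard deviation of the log2 level over the 4 libraries of at least 0.5, without predicted genes, clone names, receptor segments and mitochondrial genes, by the distance between centred log2 levels. Nearest to Malat1 were Rgs1 (distance 0.226), Lrrc8d (0.325) and Ly6c1 (0.420). Rgs1, a regulator of G protein signalling, was at 132 (naive), 75.4 (Th0), 138 (Th17) and 69.5 CPM (Treg). Nearest to Neat1 were Ap5s1 (0.0788), Glrx5 (0.0972) and Cttn (0.104). Among the 3 nearest to Gas5 were Kif23 (0.0587), at 34.7, 249, 116 and 109 CPM, and Fgfr1op (0.133). Malat1 had the most distant nearest gene of the 3. With 4 points per gene, such likeness is a description only.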
